A study of Mus musculus with 8 samples.

Results

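Small heat shock proteins, their cochaperones and the heat shock factors were examined in cartilage cells (primary articular chondrocytes of the mouse) after forced expression of the zinc transporter ZIP8. The list held 10 genes chosen by symbol: the small chaperone genes Hspb1, Hspb8 and Cryab, the cochaperone genes Bag3, Dnajb1, Dnajb4, Chordc1 and Ahsa1, and the heat shock factor genes Hsf1 and Hsf2. Of these, 9 were measured among 22180 genes, and Hsf1 was not analysed here. Cells came from femoral and tibial joint cartilage of wild-type ICR mice aged 5 days, grew as a monolayer in serum-containing medium and were infected with an empty adenovirus (Ad-null, 4 arrays) or an adenovirus expressing ZIP8 (Ad-Zip8, 4 arrays). All cells were thus infected, and RNA was taken 24 h later. The labels call the arrays biological replicates without saying whether the cultures came from separate or pooled animals, so the p-values reflect spread among these cultures, which may be technical in part. How many cells were infected was not analysed here.

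Small heat shock proteins share the alpha-crystallin domain and hold unfolding proteins in solution without using ATP. Cochaperones pass such clients on: J-domain proteins of the DNAJB type load them onto Hsp70 and stimulate its ATPase, BAG proteins release them from Hsp70, and AHSA1 and CHORDC1 act on Hsp90. BAG3 also binds HSPB8 and steers clients to autophagy. Heat shock factors bind repeats of the unit GAA and its reverse TTC in the promoters of many of these genes.

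The promoter table used here, RefSeq on build GRCm38.p6, holds 300 bases per annotated start, 250 before it and 50 after. It had 10 windows for 8 of the 10 genes. The genes without an entry were Cryab and Hsf1. The following stretches are shown because they carry heat shock element letters in genes whose transcripts responded very differently, with the inducible Hsp70 gene Hspa1b for comparison. Each is read 5′ to 3′ on the gene's strand, and capitals mark GAA and TTC units spaced as GAANNTTC or TTCNNGAA.
Hspb1: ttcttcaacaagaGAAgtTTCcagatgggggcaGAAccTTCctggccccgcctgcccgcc
Hspa1b: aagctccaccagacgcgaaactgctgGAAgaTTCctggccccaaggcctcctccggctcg
Chordc1: aaccgGAAcgTTCggGAAaaTTCctGAAgc
Hspb8: cagcccagaagccaggaGAAgtTTCtaggc
Bag3: tggatgggaccaGAAgtTTC
The Hspb1 stretch lies at chr5:135887789-135887848 on the plus strand, with matches starting at positions -117 and -97 from the annotated start. The Hspa1b stretch lies at chr17:34959309-34959368 on the minus strand, with its match at -104. The Chordc1 stretch (chr9:18292258-18292287, plus strand) spans the start, the Hspb8 stretch (chr5:116422850-116422879, minus strand) does so too, and the Bag3 stretch (chr7:128523613-128523632, plus strand) lies just inside the transcribed part.

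GAANNTTC, which reads the same on either strand, occurred in windows of 4 of the 8 genes (Hspb1, Hspb8, Bag3 and Chordc1) and in 7.86% of all 32851 windows. Hspb1 and Chordc1 held it 2 times each, which 0.344% of windows do. TTCNNGAA occurred in 8.52% of windows, among them that of Chordc1 and 1 of the 2 for Dnajb4. Chordc1 was the only one of the 8 with a 3-unit form, in which GAA and TTC units alternate with NN between them. Its window held the form that starts with GAA 2 times and the form that starts with TTC 1 time in an overlapping run, and 0.603% of windows hold either form. The Bag3 match ends at the last base of its window, so a 3-unit form running on from it could not be counted. Neither 8-letter form was found in the windows of Dnajb1, Ahsa1 or Hsf2. For metal response elements, TGCACNC (12.59% of windows, counting either strand) was in none of the members' windows, and TGCGCNC (15.388%) was in windows of Dnajb1, Dnajb4 and Hsf2. These matches describe letters in these windows, not binding.

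The ZIP8 gene itself, Slc39a8, checked the labels: its log2 level lay between 6.12 and 6.27 on the Ad-null arrays and between 10.90 and 11.24 on the Ad-Zip8 arrays. The 12 chondrocyte markers examined had group means from 9.71 to 13.46, all above the array medians of 5.04 to 5.11. Some fibroblast and smooth muscle markers were also high, with group means up to 12.72 and 12.1, so these levels do not single out chondrocytes. Over all genes the correlation between arrays of the same group was 0.991 to 0.993, and 0.979 to 0.986 between arrays of different groups. All levels below are log2 values from the RMA method (background-corrected and normalized across arrays), 1 probe set per gene, and changes are given as Ad-Zip8 minus Ad-null, with limma's moderated standard error (SE) beside them. A gene was called at a Benjamini-Hochberg adjusted p under 0.05 over all 22180 genes. Probe sets differ in affinity, so levels of the members are not compared with each other. Marker levels and summed signals, to which bright probe sets add most, are rough descriptions only.

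In the Ad-Zip8 chondrocytes the small heat shock protein genes parted ways. Hspb1 was 1.65-fold higher (95% interval 1.32 to 2.06) and Cryab was 1.77-fold lower, while Hspb8 lay within its replicate spread. Another Hspb1 probe set, of lower level, showed no such rise. The cochaperones Bag3, Dnajb4, Chordc1 and Ahsa1 and the factor Hsf2 had log2 changes between -0.10 and 0.09 and were not called, and Dnajb1 was 1.21-fold higher without passing. In all, 1 of 9 genes was called higher and 1 lower, where 5.48% of all genes were called higher and 5.12% lower (10.6% in either direction). The median log2 change of the 9 was 0.03, and that of all genes was -0.02.

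**Figure D1:**
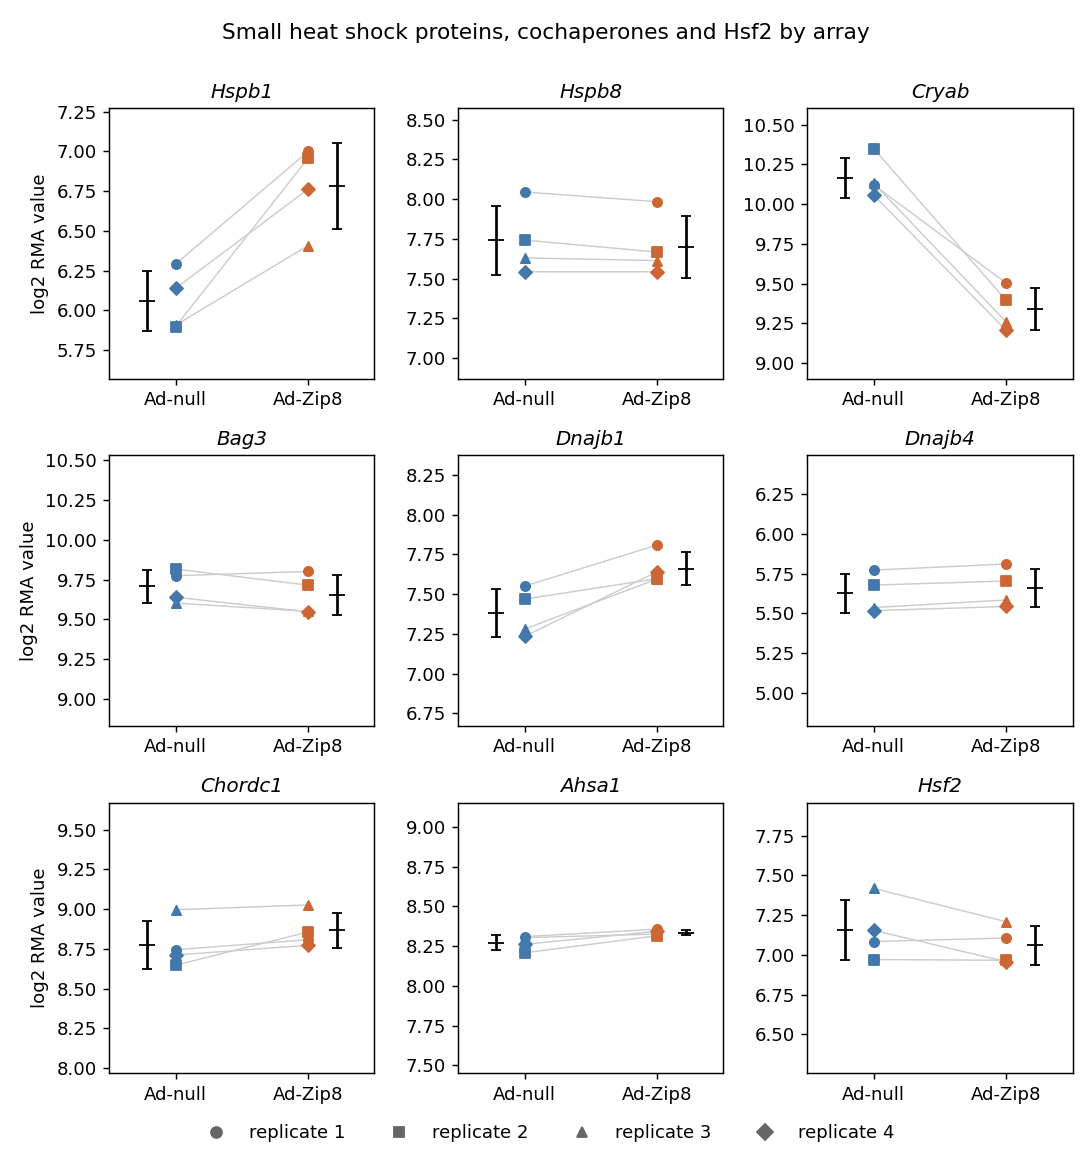
Log2 RMA value of each measured gene (vertical axes, equal span in every panel) on the 4 Ad-null arrays (blue) and 4 Ad-Zip8 arrays (orange), with grey lines joining arrays of the same replicate number and black bars giving mean ± SD. Hspb1 moves up and Cryab down with no overlap between groups, whereas for Hspb8, Bag3, Dnajb4, Chordc1 and Hsf2 the groups overlap.

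Hspb1 encodes the stress-inducible small chaperone called Hsp25 in mice, which forms large oligomers and protects actin filaments. Its log2 levels were 6.29, 5.90, 5.91 and 6.14 on the Ad-null arrays and 7.0, 6.96, 6.41 and 6.76 on the Ad-Zip8 arrays. The lowest Ad-Zip8 array, replicate 3, still lay above the highest Ad-null array, replicate 1. The means were 6.06 ± 0.19 and 6.78 ± 0.27 (SD, n = 4 each), a log2 change of 0.72 (SE 0.14, limma adjusted p = 0.00960). Hspb1 rose in each of the 4 same-numbered comparisons, by 0.50 to 1.06.

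Hspb1 had another probe set, which did not show this rise. It read 4.45, 4.30, 4.62 and 4.45 with Ad-null and 4.55, 4.61, 4.59 and 4.23 with Ad-Zip8, below the array medians in every sample. Its log2 change was 0.04 with an SE of 0.11 (limma adjusted p = 0.907 over all 41345 probe sets). Averaged over its probe sets, the log2 change of Hspb1 was 0.38 (limma adjusted p = 0.0347), and over all alternatives the adjusted p lay between 0.00208 and 0.0347. The rise itself, and not only its size, therefore rests on the probe set with the higher level. Differences can be compressed at levels below the array medians. The flat reading of the lower-level probe set thus does not by itself decide whether Hspb1 rose.

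Cryab encodes alpha-B crystallin, a small chaperone best known from lens and muscle that stabilises desmin and actin filaments. Its levels were 10.12, 10.35, 10.13 and 10.06 with Ad-null and 9.50, 9.39, 9.26 and 9.21 with Ad-Zip8. The highest Ad-Zip8 array lay more than 0.5 log2 units below the lowest Ad-null array. The means were 10.2 ± 0.13 and 9.34 ± 0.13 (SD, n = 4 each), and the log2 change was -0.82 (SE 0.09, limma adjusted p = 4.09e-04). Same-numbered arrays differed by -0.96 to -0.62.

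A second Cryab probe set showed the same direction. It read 6.28, 6.52, 6.46 and 6.31 with Ad-null and 5.74, 6.04, 5.71 and 5.81 with Ad-Zip8, again without overlap, with a log2 change of -0.57 (SE 0.10, limma adjusted p = 0.0162 over all probe sets). A probe set annotated to both Hspb2 and Cryab, neighbouring genes on chromosome 9, went from 5.60 ± 0.17 to 5.48 ± 0.03 (SD, n = 4 each; log2 change -0.12, limma adjusted p = 0.644 over all probe sets). It names no gene by itself, so Hspb2 was not analysed.

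**Figure D2:**
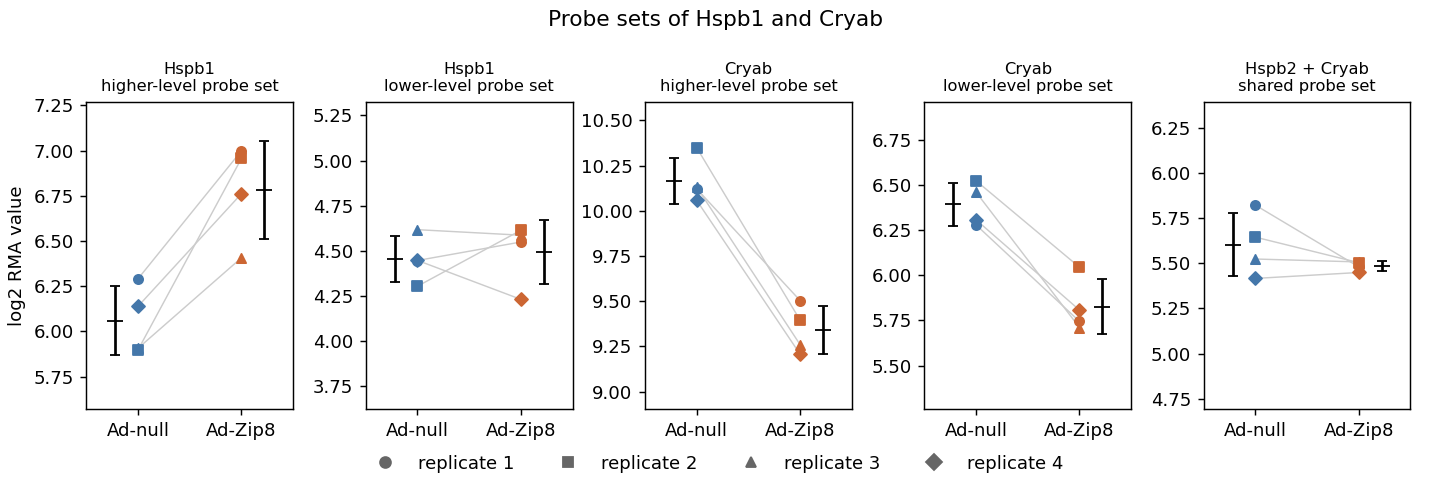
Log2 RMA values of the 5 probe sets annotated to Hspb1 or Cryab, by group and replicate, with black bars for mean ± SD and equal axis spans. The lower-level Hspb1 probe set stays near 4.5 in either group, whereas both probe sets of Cryab alone fall.

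Hspb8 encodes the small chaperone that works with BAG3. Its levels were 8.04, 7.74, 7.63 and 7.54 with Ad-null and 7.98, 7.67, 7.61 and 7.54 with Ad-Zip8. Replicate 1 was the highest array of each group and the groups overlapped almost fully. The log2 change was -0.04 (95% interval -0.33 to 0.25, limma adjusted p = 0.904). The spread within a group, 0.50 with Ad-null and 0.44 with Ad-Zip8, was far wider than any difference between same-numbered arrays, the largest of which was -0.075. With the replicate number as a block the SE went from 0.13 to 0.06 and Hspb8 was still not called (limma adjusted p = 0.755).

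Within arrays, Cryab was measured against the other small heat shock protein genes to ask whether they changed unequally. The log2 difference Cryab minus Hspb1 was 4.11 ± 0.29 with Ad-null and 2.56 ± 0.20 with Ad-Zip8 (SD, n = 4 each). That is a change of -1.55, with no overlap between groups (two-sided exact permutation test, p = 0.0286, the smallest that 4 against 4 can give, and adjusted p = 0.04 over 7 gene pairs). Hspb1 rose and Cryab fell, each without overlap, so this p was fixed in advance and adds nothing to their calls. For Cryab minus Hspb8 the change was -0.79 (exact permutation test, p = 0.0286, adjusted p = 0.04).
With 1 array left out, the first of these differences had an adjusted p of 0.04 to 0.05 and the second of 0.04 to 0.08. When Ad-Zip8 replicate 1, 3 or 4 was dropped, it was 0.08 for Cryab minus Hspb8 and 0.05 for Cryab minus Hspb1. When Ad-null replicate 3 or 4 was dropped, it was 0.05 for either. The adjustment runs over all 7 gene pairs, and in these Ad-null runs Dnajb1 minus Dnajb4 became 0.08. The 0.08 of Cryab minus Hspb8 arose because, with groups of unequal size, another split of the arrays gave a difference at least as large. For either difference the groups stayed apart whichever array was dropped. The 0.05 and 0.08 values thus do not by themselves show that either difference depends on particular arrays.

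The fall of Cryab ran alongside lower cartilage and contractile transcripts. Of 12 chondrocyte markers, 10 fell and 2 (Col2a1 and Sox9) were not called, and Matn1, a cartilage matrix adaptor, fell by 1.14 on the log2 scale (SE 0.12, limma adjusted p = 2.16e-04). The summed linear signal of these markers was 61335 to 63605 on the Ad-null arrays and 40194 to 47609 on the Ad-Zip8 arrays. Among 8 smooth muscle and pericyte markers, 4 fell and Mylk rose (0.64, limma adjusted p = 0.0173, not called without Ad-null replicate 2 or when adjusted over all probe sets). The actin-binding gene Cnn1 fell by 1.27 (SE 0.13, limma adjusted p = 1.67e-04) and Tagln by 0.87, and the list's summed signal went from 6469 to 7250 down to 4158 to 4631. The smooth muscle myosin gene Myh11, a defining marker picked out after its values were seen, averaged 5.56 with Ad-null and 5.44 with Ad-Zip8, near the array medians. Of 12 skeletal muscle markers only Acta1 was called, lower by 0.50 (limma adjusted p = 0.0410, 0.0133 to 0.111 over the alternatives), and Myod1 averaged 5.11 and 5.19. Group means over the skeletal muscle list ran from 3.55 to 7.33, the highest being that of Acta1 with Ad-null. No marker is listed at 0, since RMA values have no 0. The Acta1 call was lost when any 1 array except Ad-Zip8 replicate 2 was left out and when adjusted over all probe sets. The part of these markers in the fall of Cryab was not tested, and in RNA from mixed cells, fewer cells of a type and less RNA per cell cannot be told apart.

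Hspb1 rose beside changes in other marker lists. Of 12 macrophage markers Cd14 and Cd68 rose and Laptm5 fell, with a summed signal of 458 to 474 with Ad-null and 533 to 644 with Ad-Zip8. Fibroblast and tendon markers went either way, 3 of 10 higher and 2 lower, with summed signals of 9228 to 10167 and 12444 to 13474, and with 1 array left out only 1 was lower, except when that array was Ad-null replicate 3 or Ad-Zip8 replicate 1 or 4. The lower count was also 1 with repeated quantile normalization and with adjustment over all probe sets. Of 6 adipocyte markers Fabp4 and Adipoq rose (summed signal 179 to 210 and 263 to 337), by 2.78 and 0.34 on the log2 scale. Adipoq averaged 3.83 with Ad-null and 4.18 with Ad-Zip8, below the array medians in either group. Fabp4 averaged 4.12 with Ad-null, also below them, and 6.90 with Ad-Zip8, so the size of either rise is uncertain. The limma adjusted p of Adipoq was 0.0443 and lay between 0.0190 and 0.119 over the alternatives. Adipoq was not called with the variance trend, with adjustment over all probe sets or when any 1 array but Ad-null replicate 2 or Ad-Zip8 replicate 4 was left out. None of 8 endothelial markers was called by limma, and none had an unadjusted p under the same threshold, with summed signals of 200 to 233 and 219 to 234. The macrophage gene Adgre1 averaged 4.12 and 4.22 and the endothelial gene Cdh5 averaged 4.52 and 4.59, below the array medians in either group. They were picked as defining markers after their values were seen. Group means ran from 3.22 to 7.43 over the macrophage list and from 3.57 to 5.51 over the endothelial list. Adgre1 and Cdh5 thus do not stand for the levels of their lists. The part of these markers in the rise of Hspb1 was not tested.

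None of the listed Hsp70 cochaperones Bag3, Dnajb1 and Dnajb4 was called. Bag3 encodes the BAG protein that links HSPB8 to Hsp70, and its levels were 9.77, 9.82, 9.60 and 9.64 with Ad-null and 9.80, 9.71, 9.55 and 9.55 with Ad-Zip8. The groups overlapped, replicates 1 and 2 being the higher arrays in each, and the log2 change was -0.05 (95% interval -0.25 to 0.14, limma adjusted p = 0.781). Hspb8 minus Bag3, the difference between partners of the same complex, went from -1.97 ± 0.17 to -1.95 ± 0.10 (SD, n = 4 each), a change of 0.02 with overlapping groups (two-sided exact permutation test, p = 0.857, adjusted p = 0.857).

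Dnajb1 encodes Hsp40, the stress-inducible J-domain partner of Hsp70. Its levels were 7.55, 7.47, 7.28 and 7.23 with Ad-null and 7.81, 7.60, 7.60 and 7.64 with Ad-Zip8. Each Ad-Zip8 array lay above each Ad-null array, although the gap between the nearest of them was under 0.05. Groups were apart in this way for 4 of the 9 genes (Hspb1, Cryab, Dnajb1 and Ahsa1), against 17.6% of all genes. The log2 change of Dnajb1 was 0.28 (95% interval 0.07 to 0.48, SE 0.09), and it missed the threshold (limma adjusted p = 0.0978). Same-numbered arrays differed by 0.13 to 0.41, and with the replicate block it was not called (limma adjusted p = 0.0656). It was called after genes with a mean under 5 were left out (limma adjusted p = 0.0457) and with a variance trend (0.0467), and its adjusted p ranged from 0.0457 to 0.231 over all alternatives.

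Dnajb4, a J-domain gene of the same class, gave 5.77, 5.68, 5.54 and 5.52 with Ad-null and 5.81, 5.70, 5.58 and 5.54 with Ad-Zip8. These levels lie near the array medians, where differences are compressed by background. Each of the 4 same-numbered differences was positive but small, at 0.03 to 0.05, beside a spread of 0.26 among the Ad-null arrays and 0.27 among the Ad-Zip8 arrays. The log2 change was 0.03 (95% interval -0.17 to 0.24, limma adjusted p = 0.872).
Set against each other within arrays, Dnajb1 minus Dnajb4 moved from 1.76 ± 0.03 to 2.00 ± 0.08 (SD, n = 4 each), a change of 0.24 without overlap (two-sided exact permutation test, p = 0.0286, adjusted p = 0.04). The adjusted p became 0.08 when Ad-null replicate 3 or 4 was dropped and 0.05 when Ad-Zip8 replicate 1, 3 or 4 was. The groups stayed apart in each of these runs. The 0.08 came from another split of the unequal groups, and the 0.05 from the adjustment over all gene pairs. These values do not by themselves show dependence on particular arrays. With Dnajb4 in the compressed range, the difference Dnajb1 minus Dnajb4 does not by itself show that the genes changed unequally.

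The Hsp90 cochaperones Chordc1 and Ahsa1 were not called either. Chordc1 encodes a protein whose paired cysteine- and histidine-rich domains bind zinc. Its levels were 8.74, 8.65, 9.0 and 8.71 with Ad-null and 8.81, 8.86, 9.03 and 8.77 with Ad-Zip8, replicate 3 being highest in each group. Each same-numbered difference was positive, at 0.03 to 0.21, but the groups overlapped, and the log2 change was 0.09 (95% interval -0.12 to 0.30, limma adjusted p = 0.650, and 0.461 with the replicate block), beside the 3-unit heat shock element letters printed above for its start.
Ahsa1 encodes the activator of the Hsp90 ATPase. Its levels were 8.31, 8.21, 8.30 and 8.26 with Ad-null and 8.36, 8.32, 8.33 and 8.34 with Ad-Zip8. It had the narrowest spread of the 9 genes and the groups did not overlap, same-numbered differences being 0.02 to 0.11, yet the log2 change was only 0.06 (95% interval -0.08 to 0.21, limma adjusted p = 0.619). Chordc1 minus Ahsa1 changed by 0.03 (two-sided exact permutation test, p = 0.686, adjusted p = 0.80).

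Hsf2 encodes the heat shock factor best known from development, which can pair with HSF1. Its levels were 7.08, 6.97, 7.42 and 7.15 with Ad-null and 7.11, 6.97, 7.21 and 6.96 with Ad-Zip8. Replicate 3 was highest in each group and the groups overlapped. The log2 change was -0.10 (95% interval -0.34 to 0.14, limma adjusted p = 0.664). Of 11 further heat shock factor and regulator genes, none was called by limma and 1 had an unadjusted p under the same threshold.

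**Figure D3:**
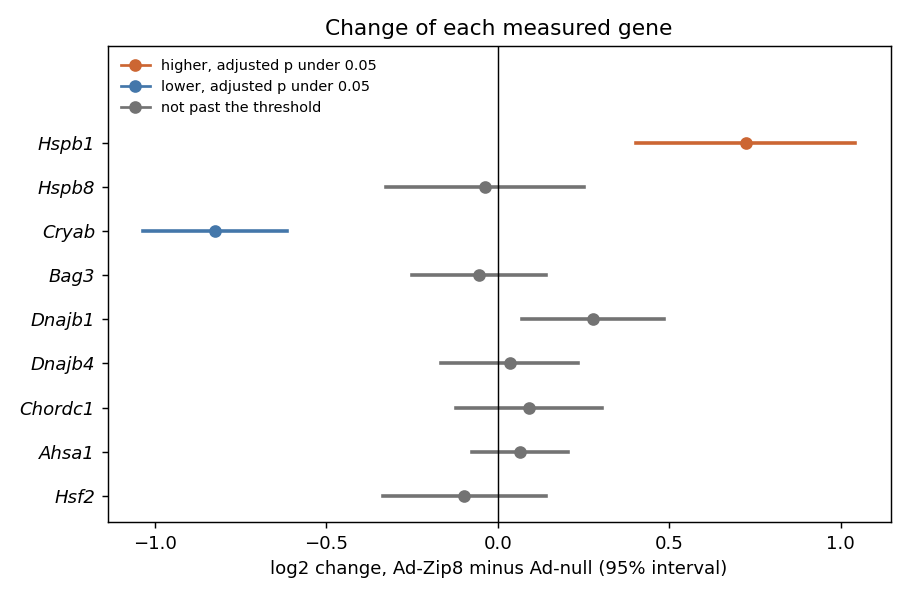
Log2 change, Ad-Zip8 minus Ad-null, of the 9 measured genes (horizontal axis) with 95% intervals from limma, coloured by call. The interval of Hspb1 lies wholly above 0 and that of Cryab wholly below; that of Dnajb1 starts at 0.07 without an adjusted call, and the other 6 span 0.

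The inducible Hsp70 genes, which share heat shock factor control and work with these cochaperones, changed on another scale. Hspa1b had levels of 6.53 to 6.80 with Ad-null and 9.57 to 10.44 with Ad-Zip8, a rise of 3.23 on the log2 scale (SE 0.17, limma adjusted p = 4.84e-06). Hspa1a, a near-identical copy that the probes may not separate fully, rose by 3.66 from an Ad-null mean of 4.75, below the array medians, so the size of its change is uncertain. A probe set annotated to both Hspa1a and Hspa1b rose by 1.65 (SE 0.20, limma adjusted p = 0.00274 over all probe sets). Its mean went from 4.02 with Ad-null, also below the array medians, to 5.67 with Ad-Zip8. Dnajb1 minus Hspa1b within arrays went from 0.71 ± 0.22 to -2.25 ± 0.31 (SD, n = 4 each), a change of -2.95 (two-sided exact permutation test, p = 0.0286, adjusted p = 0.04). Bag3 minus Hspa1b changed by -3.29, from 3.03 ± 0.19 to -0.25 ± 0.27 (SD, n = 4 each; exact permutation test, p = 0.0286, adjusted p = 0.04). Neither difference overlapped between groups. The gap between the Hspa1b groups was far wider than the spread of Dnajb1 or Bag3, so these p-values were fixed in advance. They restate the rise of Hspa1b, which Dnajb1 and Bag3 did not match in size. The adjusted p of either pair became 0.05 when replicate 3 or 4 of either group, or replicate 1 of the Ad-Zip8 group, was dropped. The adjustment runs over all 7 gene pairs, and in each of these runs another pair became 0.08 (Cryab minus Hspb8 or Dnajb1 minus Dnajb4). The move to 0.05 thus does not by itself show that the differences from Hspa1b depend on particular arrays.

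**Figure D4:**
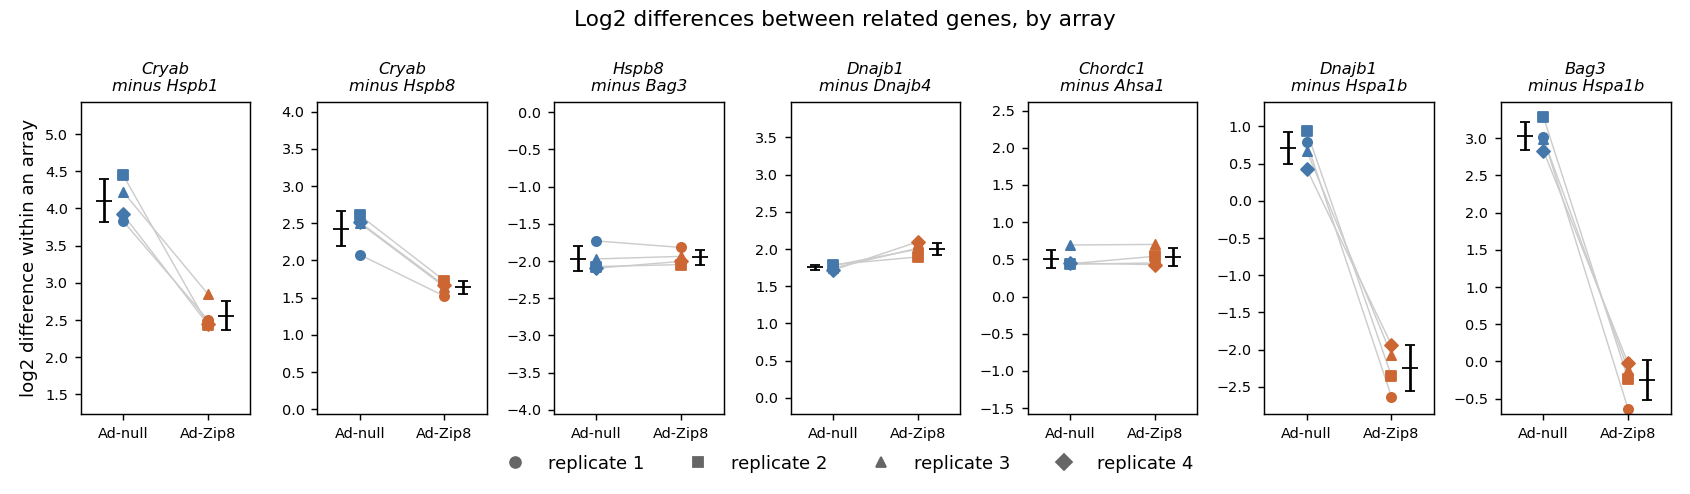
Log2 difference between related genes within each array (vertical axes, equal span), by group and replicate, with black bars for mean ± SD. The groups separate for Cryab against Hspb1 or Hspb8, for Dnajb1 against Dnajb4 and for Dnajb1 or Bag3 against Hspa1b, and overlap for Hspb8 against Bag3 and Chordc1 against Ahsa1.

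The rest of the heat shock network was called at a share near that of all genes. Of 93 measured genes in 8 lists, 7 rose, 2 fell and 84 were not called, which is 9.68% beside 10.6% of all genes, with a median log2 change of 0.01. In the Hsp70 and Hsp110 list 3 of 13 rose, Hspa1a, Hspa1b and Hspa4l, an Hsp110-type gene (0.95, SE 0.14, limma adjusted p = 0.00169), while the constitutive Hspa8 had a change of 0.08. None of 12 Hsp90 and chaperonin genes was called by limma and none had an unadjusted p under the threshold, with Hsp90aa1 at 0.20 (limma adjusted p = 0.296). None of 7 other small heat shock protein genes was called by limma and 2 had an unadjusted p under the threshold, and Odf1, named after its values were seen, was called higher with dim genes left out or with the variance trend. None of 5 other BAG genes was called by limma and 1 had an unadjusted p under it.

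Among 19 other J-domain genes Dnajc9, which encodes a histone-binding J-domain protein, was the only one called (0.44, SE 0.08, limma adjusted p = 0.00695). Of 16 further Hsp90 cochaperones 2 rose and 1 fell. Stip1, which encodes the adaptor HOP that joins Hsp70 to Hsp90, was at 9.78 to 10.01 with Ad-null and 10.32 to 10.60 with Ad-Zip8 and rose by 0.55 (SE 0.09, limma adjusted p = 0.00294). Ahsa2, the relative of Ahsa1, rose by 0.32 (SE 0.08, limma adjusted p = 0.0340). That call was lost with the replicate block (limma adjusted p = 0.0569), with adjustment over all probe sets and when any 1 array except Ad-null replicate 2 was left out, and its adjusted p was 0.0124 to 0.0952 over the alternatives. Cdc37l1 fell by 0.31 (SE 0.06, limma adjusted p = 0.0124).

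Of 10 autophagy genes linked to BAG3, Map1lc3b, the gene of the autophagosome protein LC3B, rose by 0.36 (SE 0.06, limma adjusted p = 0.00484), and Synpo, which encodes the actin-associated synaptopodin, fell by 0.62 (SE 0.10, limma adjusted p = 0.00382). The receptor gene Sqstm1 had a log2 change of 0.24 (limma adjusted p = 0.0757). Sqstm1 was called higher too with dim genes left out, the variance trend or repeated quantile normalization. Bag3 and Hspb8 were not called beside them.

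**Figure D5:**
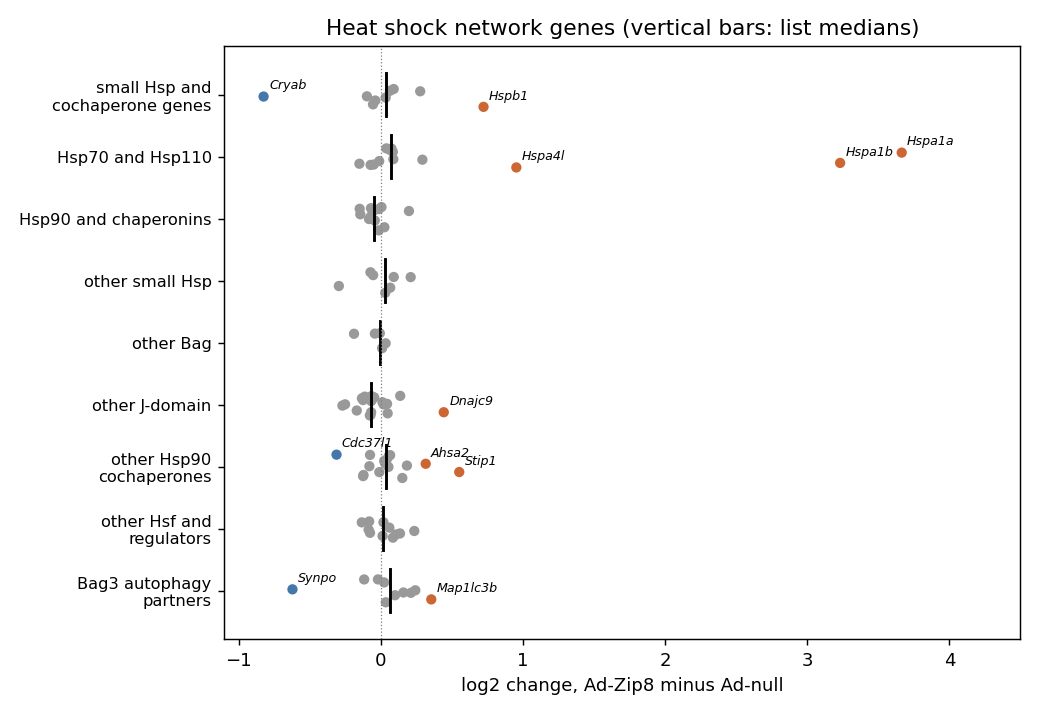
Log2 change, Ad-Zip8 minus Ad-null (horizontal axis), of each measured gene of the heat shock network by list, with orange for called higher, blue for called lower, grey for not called and black vertical bars for list medians. Hspa1a and Hspa1b stand far to the right at 3.66 (from a level below the array medians) and 3.23, while most genes lie close to 0.

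The genes whose values ran most like those of the called members over the 8 arrays were listed by Pearson r, as a description in which the group difference is the main shared component. For Hspb1 they were Gpm6b (r = 0.985), Lrrc32 (0.978) and Got2 (0.978), with log2 changes of 0.38, 0.60 and 0.19. Got2 was not called by limma (adjusted p = 0.121), except with dim genes left out (0.0494) or the variance trend (0.0185), and the call of Gpm6b (limma adjusted p = 0.0278) was lost (up to 0.0807) when any array except Ad-null replicate 1 and Ad-Zip8 replicate 3 was dropped, and when adjusted over all probe sets. For Cryab they were Gpc4 (r = 0.989), Supt20 (0.988) and Abcc5 (0.987), with log2 changes of -0.59, -0.31 and -0.38. All 3 were called lower, but the call of Supt20 (limma adjusted p = 0.0197) was lost when Ad-null replicate 2 (0.0600) or replicate 4 of Ad-Zip8 (0.0591) was dropped and when adjusted over all probe sets (0.0560).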

How the data were processed

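Total RNA of 8 cultures was hybridised to 8 whole-transcript arrays. The authors deposited 1 log2 value per probe set and array, which RMA produced, per the submitters' processing notes (version and array genome build not given in the sources used here). Values ran from 0.85 to 13.8, with differences compressed at either end. Array number limits the precision, and no detection calls were used.

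The platform annotation gave 1 symbol for 23521 of the 41345 probe sets and several for 1814, which were not named. Each gene was read at its probe set of highest mean level, leaving 22180 genes. Groups were compared with limma 3.58.1 in R 4.3.3 (lmFit, eBayes, two-sided, no covariates, no filter), and p-values were adjusted by Benjamini-Hochberg over all genes. Within-array differences of 7 gene pairs were tested by exact permutation over 70 splits. A further 2 planned pairs needed Hsf1 or Hspb2 and were not analysed.

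Same-numbered arrays deviated together (correlations of 0.108 to 0.374, other pairs -0.271 to 0.155), so replicate numbers were taken as pairs in an alternative fit. This pairing comes from the data, not from the labels. The permutation tests of gene pairs did not use it, in the main run or in any alternative. Alternatives were a filter on genes with a mean under 5, a variance trend, repeated quantile normalization, median centring, the mean over probe sets, adjustment over all probe sets, the replicate block and leaving out each array.

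The members and lists were chosen with earlier results of these data known. Genes were named by rule: all members, Slc39a8, pair partners, up to 4 called genes per list by adjusted p, and the 3 genes most correlated with each called member; others say so or serve as list context. Promoter letters come from RefSeq (GRCm38.p6), whose build was not matched to the array's.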

Additional observations from a re-analysis of the deposited data

Results flagged for a closer look

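A sample lay far from the others of its group, by Dixon's test of the gap over the range, in 6 of 100 groups of 4 values tested, where chance flags about 1 in 20. None was a level of one of the 9 measured members. Ahsa2 was highest in Ad-null replicate 2 (7.267, group median 7.07) and in Ad-Zip8 replicate 1 (7.57, group median 7.39). Dcn was lowest in Ad-Zip8 replicate 2 (12.633, group median 12.7), and Cd14 was lowest in Ad-null replicate 3 (5.123, group median 5.48). Cryab minus Hspb1 was highest in Ad-Zip8 replicate 3 (2.852, group median 2.47), the array with the lowest Hspb1 level of its group. Chordc1 minus Ahsa1 was highest in Ad-null replicate 3 (0.693, group median 0.445).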

How the results depend on the processing

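Hspb1 stayed higher and Cryab lower past the threshold under every alternative run, with log2 changes of 0.38 to 0.85 and -0.88 to -0.69. No alternative read Hspb1 at its lower-level probe set alone, which did not show the rise. Members called higher went from 1 to 2 with dim genes left out and with the variance trend, the added gene being Dnajb1 (log2 change 0.277, adjusted p = 0.0457 and 0.0467). Genes called lower went from 1136 to 614 when all probe sets were adjusted together, and leaving out 1 array gave 708 to 923 lower and 924 to 1119 higher. The replicate block gave 1278 higher and 1059 lower, and it changed the call of no member. Directions of uncalled values turned for Hspb8 (0.063 without Ad-null replicate 1, 0.015 without Ad-Zip8 replicate 4; range -0.132 to 0.063), Dnajb4 (-0.002 without Ad-null replicate 4, -0.016 without Ad-Zip8 replicate 1; range -0.016 to 0.083), Hspb8 minus Bag3 (-0.01 with repeated quantile normalization, and -0.019 and -0.027 with replicate 2 or 4 of Ad-null dropped and -0.029 with replicate 1 of Ad-Zip8 dropped, in a range up to 0.095) and Chordc1 minus Ahsa1 (-0.031 without Ad-Zip8 replicate 3; range up to 0.089). Leaving out 1 array gave changes of -1.645 to -1.432 for Cryab minus Hspb1, -0.902 to -0.725 for Cryab minus Hspb8, 0.211 to 0.279 for Dnajb1 minus Dnajb4, -3.058 to -2.826 for Dnajb1 minus Hspa1b and -3.361 to -3.157 for Bag3 minus Hspa1b. In some of these runs the adjusted p of the exact permutation tests moved to 0.05 or 0.08, although the groups stayed apart. For genes near the array medians, such as Dnajb4, the size of any change is uncertain.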
